A study of Mus musculus with 34 samples.

Results

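Integrin and laminin chain genes were examined by RNA-seq in the mouse embryonic stem cell line J1, kept in serum without LIF and with or without Royalactin. The members were all rows of the gene table whose symbol names an integrin alpha chain (Itga), an integrin beta chain (Itgb1 to Itgb8) or a laminin alpha, beta or gamma chain (Lama, Lamb, Lamc), whatever their level. They came to 37 of 23366 rows, of which 18 were integrin alpha chains, 8 integrin beta chains and 11 laminin chains. The serum/-LIF cells received no LIF and no Royalactin, and the serum/-LIF + Royalactin cells received no LIF and 0.5 mg/ml of purified Royalactin, a royal jelly protein also called MRJP1. Each condition had 2 libraries, made from total RNA after depletion of ribosomal RNA, of cells grown on plates coated with 0.2% gelatin. The labels give passage 40 and no harvest time for these 4 libraries, while the study's text gives an earlier passage. No serum/+LIF library was used, so the comparison has no arm that kept LIF. The series text speaks of biological duplicates, but nothing ties the 2 libraries of a condition to named cultures, and the p-values measure only the spread between these libraries.

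Integrins are receptors on the cell surface, each made of 1 alpha and 1 beta chain, that bind the extracellular matrix outside the cell and connect through talin and kindlin to the actin cytoskeleton inside it. Laminins are secreted trimers of 1 alpha, 1 beta and 1 gamma chain and are the main adhesive proteins of the basement membrane, the first matrix the mouse embryo lays down. Mouse embryonic stem cells secrete laminin themselves and bind it mainly through integrins that pair the alpha 6 or alpha 3 chain with the beta 1 chain.

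The values are normalized counts, which are reads per gene divided by 1 size factor per library. They compare a gene between libraries, and levels were compared between genes only per kilobase of exon. Between 14737796 and 17597818 reads lay on genes in each library, and 7878527 to 15999458 of them lay outside Rn45s, the ribosomal RNA precursor. Rn45s held 46.6% and 21.6% of reads in serum/-LIF replicates 1 and 2 and 38.4% and 9.08% in serum/-LIF + Royalactin replicates 1 and 2. Of the stem cell identity, 10 of 10 pluripotency markers were measured, with summed normalized counts of 26162 and 31709 in serum/-LIF and of 35420 and 42624 with Royalactin. Esrrb, Klf4, Sox2 and Zfp42 rose (adjusted p = 0.00273, 0.00787, 0.0368 and 0.00371 in limma with Benjamini-Hochberg adjustment). Of the 10, 7 were higher without overlap, and Tdgf1 was lower without overlap, at 10914 and 14553 in serum/-LIF against 8696 and 9728. Differences were tested with limma on log2(normalized count + 1) for the 12993 genes whose normalized counts averaged at least 10 over the libraries. Log2 fold changes below are on that scale, as serum/-LIF + Royalactin over serum/-LIF. For genes with few reads they can understate the change, or overstate it where the libraries of a condition lie far apart. Itgal, with mean normalized counts of 14.7 in serum/-LIF and 14.1 with Royalactin, had a log2 fold change of -1.49.

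Members of both families lay on either side of no change. Itga3, the alpha chain of a laminin receptor, Itga4, Itgb1, the beta chain shared by most integrins of these cells, and Lama2 were lower with Royalactin, while Itga9, Itgb7 and Lama3 were higher. These 7 were the members with an unadjusted p under 0.05 among the 26 that could be tested, against 1214 of all 12993 tested genes. None of the 26 had an adjusted p under 0.05 in limma, against 0.493% of all tested genes. With an unadjusted p under 0.05 and a change of at least 2-fold, the limits used by the study, 5 of 26 members (19.2%) were selected, against 7.13% of all tested genes. Of these, 2 were higher and 3 lower, against 3.52% and 3.61% of all tested genes. The libraries of the conditions did not overlap for 13 of 26 members (50.0%), 5 of them higher and 8 lower with Royalactin, against 38.6% of all tested genes. The median log2 fold change was -0.18 over the 26 members and -0.01 over all tested genes. Lama2, Itga7, Itga8 and Itgae reached the mean of 10 only through the condition in which they were higher, so their differences were partly set by that limit. In bulk RNA, fewer cells that express a gene and less RNA per cell cannot be told apart.

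**Figure D1:**
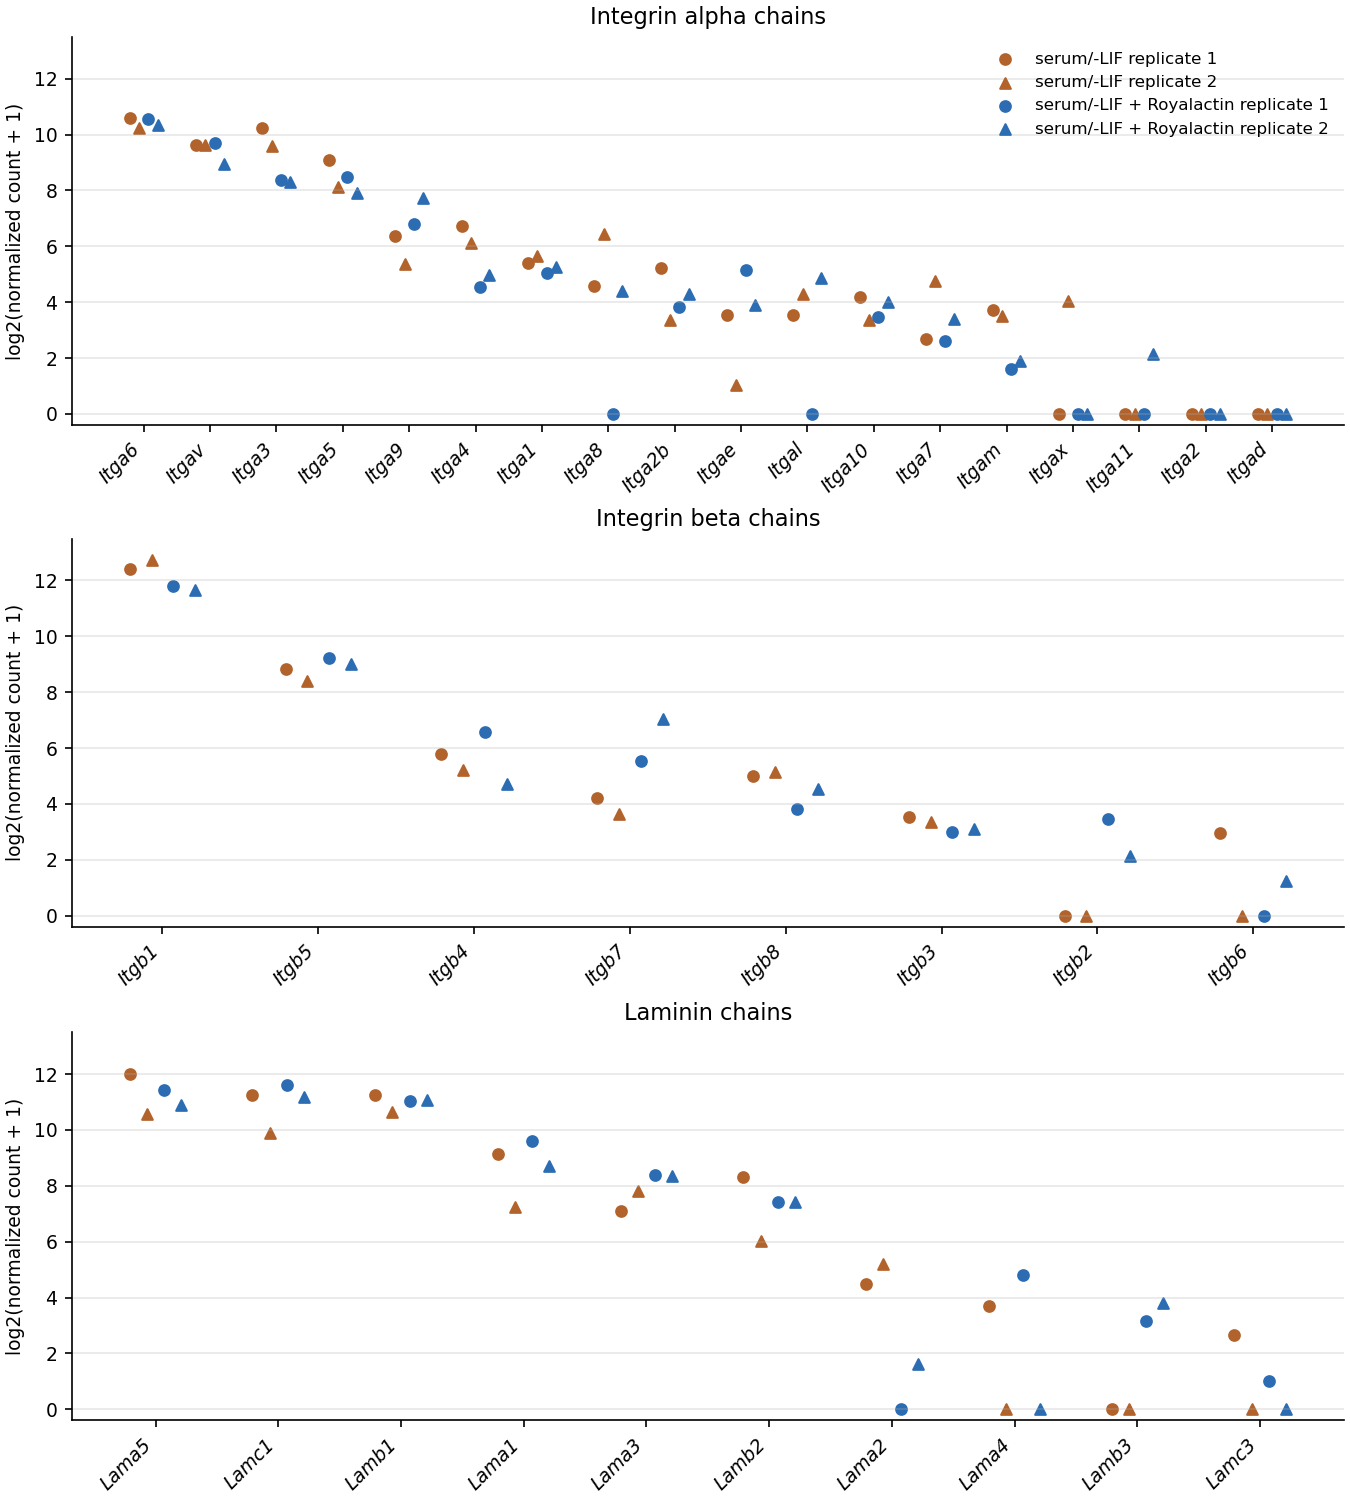
Level of 36 of the 37 integrin and laminin chain genes in the 4 libraries, as log2(normalized count + 1), with 1 panel per kind of chain, brown for serum/-LIF, blue for serum/-LIF + Royalactin, circles for replicate 1 and triangles for replicate 2. Itga3 and Itgb1 lie lower in both Royalactin libraries, Itgb7 and Itga9 lie higher, and Lama1, Lama5 and Lamc1 have serum/-LIF replicates that lie far apart.

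Among the alpha chains that pair into laminin receptors, Itga3 was lower with Royalactin and the libraries of Itga6 overlapped. Itga3 had 1204 and 773 normalized counts in the serum/-LIF libraries and 331 and 315 in the Royalactin libraries. The conditions did not overlap, and the Royalactin libraries lay close together. The mean was 988 ± 304 (SD, n = 2) against 323 ± 11.6 (SD, n = 2), a log2 fold change of -1.58 (SE 0.35). The adjusted p was 0.0787 in limma, the smallest of the 26 members, and the unadjusted p was under 0.05 in every alternative setting. Its log2 fold change lay between -1.90 and -1.26 under the 13 alternative settings, and its adjusted p between 0.000394 and 0.987. The largest adjusted p-values came from leaving out a Royalactin library, where few genes of the whole table were called. The log2 fold change of Itga3 was -1.61 without Royalactin replicate 1 and -1.54 without Royalactin replicate 2.

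Itga6 encodes the alpha chain of the other main laminin receptor of embryonic stem cells. It had 1551 and 1207 normalized counts in serum/-LIF and 1507 and 1302 with Royalactin. These libraries overlapped, with a log2 fold change of 0.03 (SE 0.30, adjusted p = 0.983 in limma). Itga7, the laminin receptor chain of muscle, was near the limit of measurement at 4 and 25 reads in serum/-LIF and 5 and 14 with Royalactin.

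Itga3 lies at chr11:94905788-94938115 on the minus strand of mm9 and Itgb1 at chr8:131209554-131257100 on the plus strand. Itga9 lies at chr9:118515808-118810121 on the plus strand and Itgb7 at chr15:102046426-102062366 on the minus strand. None of these 4 genes shares exon bases with another annotated gene, and 0% of their exon tiles of 75 bases map elsewhere in the genome with up to 2 mismatches. Tiles across exon junctions were not part of that search.

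The promoters of these 4 members are shown because they belong to integrin chains with an unadjusted p under 0.05 and no shared exon sequence. They are a pair lower and a pair higher with Royalactin, and no laminin promoter is shown. The windows run from 250 bases before to 50 bases after the RefSeq start on GRCm38.p6, a later build than mm9, and are written 5′ to 3′ on the gene's strand. Capitals mark matches on either strand to 4 motifs, GGAATG (TEAD), TGANTCA (AP-1), TTCCNNGAA (STAT) and AAGGTCA (Esrrb). The Itga3 windows are chr11:95076665-95076964 for the upstream start and chr11:95069149-95069448 for the downstream start, both on the minus strand. The Itgb1 window is chr8:128685404-128685703 (plus strand), that of Itga9 is chr9:118711442-118711741 (plus strand) and that of Itgb7 is chr15:102231886-102232185 (minus strand).
Itga3 upstream start: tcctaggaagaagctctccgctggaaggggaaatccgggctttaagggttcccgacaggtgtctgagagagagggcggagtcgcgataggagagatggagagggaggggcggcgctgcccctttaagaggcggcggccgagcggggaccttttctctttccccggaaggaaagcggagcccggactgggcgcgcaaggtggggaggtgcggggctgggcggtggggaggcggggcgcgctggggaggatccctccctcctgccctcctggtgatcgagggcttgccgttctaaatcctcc
Itga3 downstream start: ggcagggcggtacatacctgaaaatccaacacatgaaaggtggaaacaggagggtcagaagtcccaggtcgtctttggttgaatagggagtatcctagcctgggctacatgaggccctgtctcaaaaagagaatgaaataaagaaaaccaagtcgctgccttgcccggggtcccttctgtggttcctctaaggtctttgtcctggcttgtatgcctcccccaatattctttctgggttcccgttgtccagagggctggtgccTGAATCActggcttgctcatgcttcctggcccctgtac
Itgb1: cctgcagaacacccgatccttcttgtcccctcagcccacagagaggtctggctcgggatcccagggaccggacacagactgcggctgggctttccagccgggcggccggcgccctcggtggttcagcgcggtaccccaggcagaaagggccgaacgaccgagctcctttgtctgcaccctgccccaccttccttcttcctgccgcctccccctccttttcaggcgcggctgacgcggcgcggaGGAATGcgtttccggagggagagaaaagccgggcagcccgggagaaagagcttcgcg
Itga9: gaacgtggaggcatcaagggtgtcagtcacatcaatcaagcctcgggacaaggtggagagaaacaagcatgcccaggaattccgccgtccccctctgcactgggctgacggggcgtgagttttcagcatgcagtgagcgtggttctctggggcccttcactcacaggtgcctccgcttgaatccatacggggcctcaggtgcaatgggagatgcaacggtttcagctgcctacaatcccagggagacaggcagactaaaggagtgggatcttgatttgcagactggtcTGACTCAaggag
Itgb7: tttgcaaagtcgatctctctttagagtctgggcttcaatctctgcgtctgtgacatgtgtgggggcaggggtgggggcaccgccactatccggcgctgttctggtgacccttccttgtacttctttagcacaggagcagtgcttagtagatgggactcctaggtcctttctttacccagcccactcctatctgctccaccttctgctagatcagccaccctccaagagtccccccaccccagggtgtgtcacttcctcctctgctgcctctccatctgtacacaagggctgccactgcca
The downstream Itga3 start and the Itga9 start each hold an AP-1 match, and the Itgb1 start holds a TEAD match just before the transcription start. The upstream Itga3 window and the Itgb7 window hold none of the 4 motifs. Of the 26 windows found for 23 members, 11.5% hold the TEAD motif, against 14.7% of 32851 windows of all genes. The AP-1 motif is in 11.5% of the member windows against 7.81% of all, the STAT motif in 3.85% against 4.81%, and the Esrrb motif in 0 against 4.72%. A match of these letters is a description of the sequence and not of binding.

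Itga4 and Itga9 encode closely related alpha chains, which bind fibronectin, VCAM1 and osteopontin among other ligands, and they differed in opposite directions. Itga4 had 106 and 68.3 normalized counts in serum/-LIF and 22.1 and 30.3 with Royalactin, with no overlap (log2 fold change -1.68, SE 0.74, adjusted p = 0.509 in limma). Itga9 had 81.6 and 40.4 in serum/-LIF and 109.6 and 211 with Royalactin, also without overlap (log2 fold change 1.39, SE 0.61, adjusted p = 0.503 in limma). Both had an unadjusted p under 0.05, which did not hold with every library left out. It was lost for Itga4 without serum/-LIF replicate 1 or either Royalactin library, and for Itga9 without serum/-LIF replicate 2 or Royalactin replicate 2, where its log2 fold changes were 0.89 and 0.92. Of the Itga4 exon bases, 8.04% overlap Cerkl on the opposite strand, and the strand setting of the counting is not given in the sources used here.

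The alpha chains of receptors for the RGD sequence, found in fibronectin and vitronectin, were Itga5, Itgav, Itga8 and Itga2b. Itga5, the fibronectin receptor chain, had 549.6 and 275 normalized counts in serum/-LIF and 353 and 237 with Royalactin. Itgav, the vitronectin receptor chain, had 786 and 781 against 829 and 492. Both overlapped between the conditions (log2 fold changes -0.43 and -0.30, adjusted p = 0.814 and 0.843 in limma). Itga8, the nephronectin receptor chain, had 17 and 83 reads in serum/-LIF and 0 and 29 with Royalactin, or 22.7 and 85.9 against 0 and 19.96 normalized counts. Its libraries did not overlap, but the lower serum/-LIF library lay close to the higher Royalactin library (log2 fold change -3.31, SE 1.58, adjusted p = 0.549 in limma). The value was -1.12 without Royalactin replicate 1, -5.51 without Royalactin replicate 2, and -4.97 and -2.17 with pseudocounts of 0.1 and 5. Itga2b, the platelet integrin chain, had 9 to 27 reads per library, with overlap. Of 5 platelet markers, 4 were at 0 in all libraries, and the sum was 16.6 normalized counts in serum/-LIF replicate 2 and 0 elsewhere.

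The collagen receptor chains and the leukocyte alpha chains were low. Itga1 had 41.5 and 49.7 normalized counts in serum/-LIF and 32.2 and 37.2 with Royalactin, which did not overlap (log2 fold change -0.38, adjusted p = 0.922 in limma). Itga10 had 9 to 22 reads per library, with overlap. Itga2 had 0 reads in every library, and Itga11 had 5 reads in 1 Royalactin library and 0 elsewhere. A count of 0 allows up to 3 reads, which are worth 2.07 to 4.01 normalized counts depending on the library.

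Itgae, the alpha chain of intraepithelial lymphocytes, had 8 and 1 reads in serum/-LIF and 34 and 20 with Royalactin (log2 fold change 2.22, SE 1.60, adjusted p = 0.727 in limma). In normalized counts these were 10.7 and 1.04 against 34.2 and 13.8, which did not overlap. Without serum/-LIF replicate 1 the log2 fold change was 3.49, and without serum/-LIF replicate 2 it was 0.96. Itgal had 8 and 18 reads against 0 and 41, with overlap. Itgam, the macrophage chain, had 9 and 10 reads against 2 and 4 and was below the limit for testing. Itgax had 15 reads in serum/-LIF replicate 2 and 0 elsewhere, and Itgad had 0 in all libraries.

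**Figure D2:**
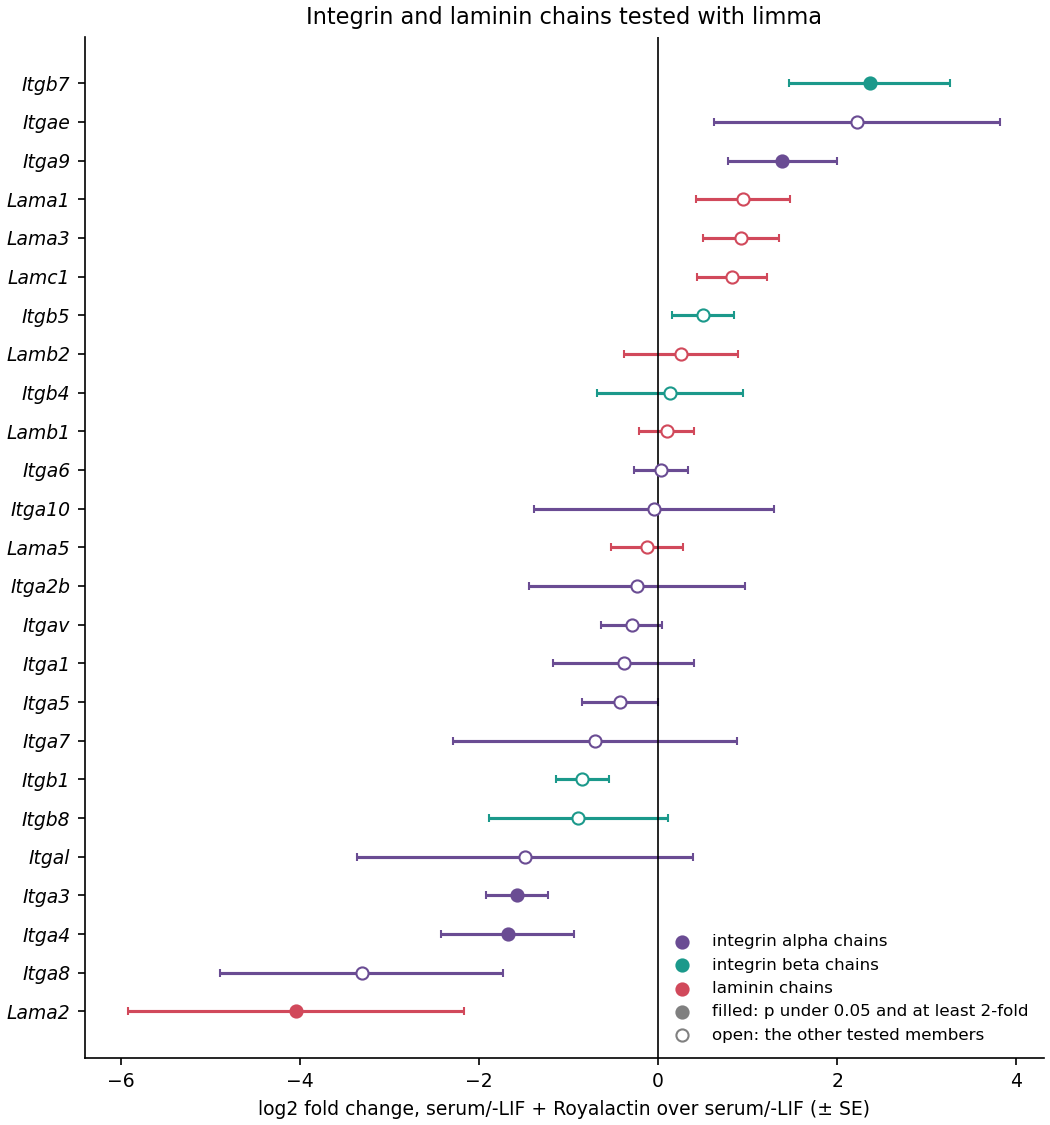
Log2 fold change (serum/-LIF + Royalactin over serum/-LIF) of 25 of the 26 tested members with its standard error in limma, filled where the unadjusted p was under 0.05 and the change at least 2-fold. Itga3, Itga4 and Lama2 are filled on the lower side and Itga9 and Itgb7 on the higher side, and the bars of Lama2, Itga8 and Itgae, which rest on few reads, are wide.

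Of the beta chains, Itgb1 was lower and Itgb7 higher with Royalactin. Itgb1 had the largest level of all members, per kilobase of exon as well as in normalized counts, at 5383 and 6855 normalized counts in serum/-LIF and 3552 and 3224 with Royalactin. The conditions did not overlap, at a mean of 6119 ± 1041 (SD, n = 2) against 3388 ± 232 (SD, n = 2). The log2 fold change was -0.84 (SE 0.30, adjusted p = 0.353 in limma), short of 2-fold. As the conditions did not overlap, its direction could not change with 1 library left out. It kept its direction under all 13 alternatives, with log2 fold changes of -0.91 and -0.77 without Royalactin replicate 1 or 2, where the unadjusted p was no longer under 0.05.

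Itgb7, which pairs with the alpha 4 and alpha E chains, had 17.4 and 11.4 normalized counts in serum/-LIF and 45.3 and 129 with Royalactin. The libraries did not overlap, and the Royalactin libraries lay further apart than the serum/-LIF ones. The log2 fold change was 2.36 (SE 0.90, adjusted p = 0.404 in limma), the largest of the tested members on the higher side, and it was 1.62 without Royalactin replicate 2, where the unadjusted p was no longer under 0.05. Of its partners, Itgae was also higher in both Royalactin libraries and Itga4 was lower in both.

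Itgb5, the vitronectin receptor beta chain, had 456 and 337 normalized counts in serum/-LIF and 592 and 519.7 with Royalactin, without overlap (log2 fold change 0.50, SE 0.35, adjusted p = 0.717 in limma). Itgb8, whose receptor activates TGF-beta, had 30.8 and 34.2 against 13.1 and 22.0, also without overlap (log2 fold change -0.89, SE 1.00, adjusted p = 0.837 in limma). Itgb4, the hemidesmosome chain, had 54.8 and 36.2 against 93.5 and 25.5, with overlap. Itgb3 had 7 to 11 reads in every library, and Itgb6 had at most 5.

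Itgb2, the beta chain of all leukocyte integrins of the CD11 kind, had 10 and 5 reads with Royalactin and 0 in each serum/-LIF library. Its mean with Royalactin was 1.68 times a floor of 4.01 normalized counts, which is 3 reads in serum/-LIF replicate 1. Royalactin replicate 2 alone, at 3.44, lay below that floor. Itgb2 was below the limit for testing. The summed levels of 8 leukocyte markers overlapped between the conditions, with normalized counts of 104 and 193 in serum/-LIF and 159 and 122 with Royalactin. Of the 8, Csf1r, Lyz2 and Tyrobp were at 0 in all 4 libraries, and Ptprc was at 1.34 in serum/-LIF replicate 1 and at 0 elsewhere. Higher alongside were Laptm5, at 21.4 and 5.18 in serum/-LIF against 77.4 and 45.4 with Royalactin (adjusted p = 0.496 in limma), and the T cell marker Cd3e, at 0 in serum/-LIF against 20.1 and 4.82. Coro1a went the other way, at 81.6 and 187 against 51.3 and 71.6. The part of these markers in the values of Itgb7, Itgb2 and Itgae was not tested.

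Per kilobase of exon, the alpha chain signal held less Itga3 and more Itga6 in both Royalactin libraries. Of all alpha chain signal per kilobase, Itga3 held 33.7% and 30.0% in serum/-LIF and 13.9% and 15.6% with Royalactin. Itga6 held 27.5% and 29.6% in serum/-LIF and 40.1% and 40.8% with Royalactin. Itga3 and Itga6 were thus within a few percentage points of each other in serum/-LIF, and Itga6 led in both Royalactin libraries. The alpha chain sum itself was 625 and 451 normalized counts per kilobase in serum/-LIF and 416 and 353 with Royalactin.

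The share of Itga5 overlapped between conditions, at 17.0 ± 4.35% against 17.3 ± 2.89% (SD, n = 2 each), as did that of Itgav, at 13.9 ± 3.12% against 15.8 ± 3.95%. Itgb1 held 89.5% and 93.6% of the beta chain signal per kilobase in serum/-LIF and 80.4% and 79.0% with Royalactin, while Itgb5 held 9.20% and 5.59% against 16.3% and 15.5%. Both shares were without overlap, and the beta chain sum was 1474 and 1794 normalized counts per kilobase against 1082 and 999.9. With 2 libraries against 2, an exact two-sided permutation test cannot go below p = 0.333, so shares were not tested. A share also falls when another chain of the same kind rises, and it gives no account of protein.

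**Figure D3:**
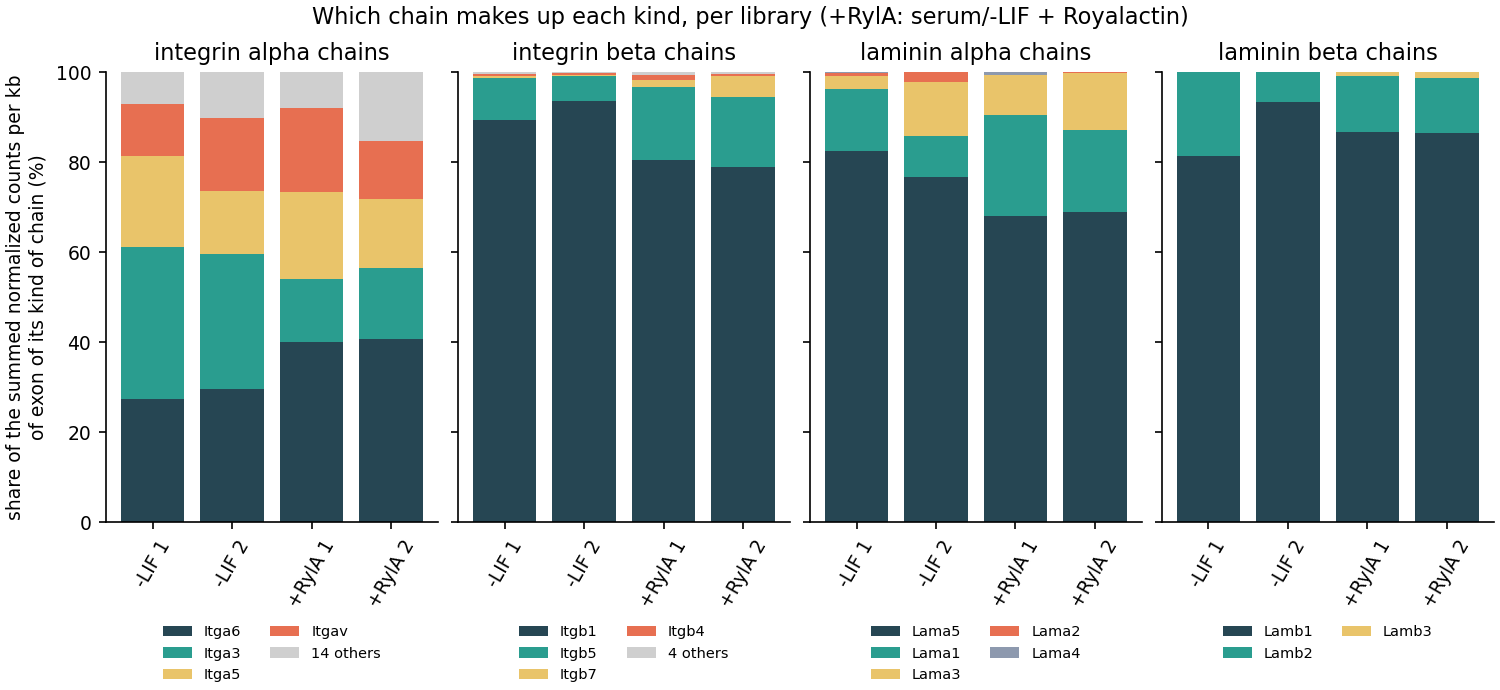
Share (%) of each chain in the signal per kilobase of exon of its own kind, in each of the 4 libraries. Among the alpha chains the Itga3 segment is smaller and the Itga6 segment larger in both Royalactin libraries, and Lama5 and Lamb1 hold most of the laminin alpha and beta signal in every library.

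The laminin chains with the most signal per kilobase in every library were Lama5, Lamb1 and Lamc1, each among chains of its kind. Lama5 had 4059 and 1536 normalized counts in serum/-LIF and 2780.1 and 1888 with Royalactin (log2 fold change -0.12, SE 0.40, adjusted p = 0.953 in limma). Lamb1 had 2441 and 1578 against 2076 and 2128 (log2 fold change 0.10, SE 0.31, adjusted p = 0.952 in limma). Lamc1 had 2419 and 954 against 3124 and 2322 (log2 fold change 0.83, SE 0.39, adjusted p = 0.547 in limma). In each, the serum/-LIF libraries spanned or reached the Royalactin values, and replicate 1 was above replicate 2.

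Lama1, the alpha chain of an early embryonic laminin, had 563 and 152 normalized counts in serum/-LIF and 769 and 417 with Royalactin. These overlapped (log2 fold change 0.95, SE 0.53, adjusted p = 0.633 in limma). Lama5 held 82.6% and 76.8% of the laminin alpha signal per kilobase in serum/-LIF and 68.0% and 68.9% with Royalactin. Lama1 held 13.7% and 9.11% in serum/-LIF and 22.5% and 18.2% with Royalactin. Both of these shares were without overlap although the levels overlapped. Lama3 held 2.97% and 12.0% in serum/-LIF and 8.89% and 12.8% with Royalactin, so in serum/-LIF replicate 2 it stood above Lama1.

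Lama3, the epithelial alpha chain, was higher with Royalactin, at 135 and 222 normalized counts in serum/-LIF and 336 and 323 with it (log2 fold change 0.92, SE 0.42, adjusted p = 0.522 in limma). The conditions did not overlap, but without serum/-LIF replicate 1 the log2 fold change was 0.57, and the unadjusted p was under 0.05 only with all libraries or without serum/-LIF replicate 2 among these omissions. Lamb3, a beta chain it pairs with in skin, had 8 and 19 reads with Royalactin and 0 in each serum/-LIF library, and was not tested. Its mean with Royalactin was 2.63 times a floor of 3 reads per library, and both Royalactin libraries, at 8.05 and 13.1 normalized counts, lay above that floor. Of 5 skin and squamous markers, Krt5, Krt14, Trp63 and Dsg3 were at 0 in all libraries, and Col17a1 was higher alongside, at 8.02 and 1.04 normalized counts in serum/-LIF and 25.1 and 11.01 with Royalactin (adjusted p = 0.772 in limma). Its part in the Lama3 and Lamb3 values was not tested.

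Lama2, the muscle and peripheral nerve alpha chain, was lower with Royalactin, at 16 and 35 reads in serum/-LIF and 0 and 3 with it. By reads pooled within each condition and scaled to the size factors, serum/-LIF was 24.3 times as high (95% interval 7.85 to 122, exact binomial, counting error only). Such an interval was made only for a member with very few reads in 1 condition and many more in the other. It therefore lies far from 1 by that choice and is not a test of a difference. The fitted log2 fold change of -4.04 (SE 1.87, adjusted p = 0.534 in limma) depends on the added count of 1, and the unadjusted p was no longer under 0.05 without Royalactin replicate 1 or 2. Without serum/-LIF replicate 2 its mean was under 10 and it was not tested. Of its exon tiles, 9.05% map elsewhere. The summed normalized counts of 11 fibroblast markers were 112 and 95.2 in serum/-LIF and 55.3 and 37.9 with Royalactin. Of the 11, 2 could be tested and 1 was selected, Dcn, at 37.4 and 31.1 in serum/-LIF and at 0 with Royalactin. Thy1 overlapped, at 41.5 and 33.1 against 45.3 and 29.6, and Fap, Pdgfrb, Postn and Prrx1 were at 0 in all libraries. The sums of 5 skeletal muscle markers were 166 and 139 against 64.4 and 66.1, of which 2 could be tested. Acta1 was selected, at 49.5 and 91.1 against 0 and 0.688 (log2 fold change -5.71, adjusted p = 0.193 in limma), Des overlapped, and Myod1 and Ckm were at 0 in all libraries. The part of either list in the Lama2 difference was not tested.

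Lamb2, a beta chain of nerve and kidney, had 314 and 64.2 normalized counts in serum/-LIF and 170.0 and 170.7 with Royalactin, with overlap. Lama4, the vessel alpha chain, had 9 and 0 reads against 27 and 0, and Lamc3 had at most 4 reads. The sums of 6 endothelial markers were 171 and 69.3 normalized counts in serum/-LIF and 229 and 264 with Royalactin. Tek, the 1 that could be tested, was selected on the higher side (log2 fold change 1.44, adjusted p = 0.349 in limma). Esam was also higher, at 1.34 and 0 in serum/-LIF against 16.1 and 14.5 with Royalactin. Tie1 went the other way, at 28.1 and 7.25 against 0 and 1.38. Cdh5 and Vwf overlapped, and Emcn was at 0 in all libraries. The part of these markers in the Lama4 values was not tested. Primitive, parietal and visceral endoderm are the embryonic tissues that make much laminin. Their 14 markers had summed normalized counts of 1269 and 933 in serum/-LIF and 1048 and 674 with Royalactin. Of these markers, 9 could be tested and 0 had an unadjusted p under 0.05 with a 2-fold change in limma. Among the 9, Gata4 was higher without overlap, at 28.1 and 8.28 in serum/-LIF against 49.3 and 44.7. Dab2 (284 and 245 against 188 and 126), Hnf4a and Ttr were lower without overlap. Cubn, the largest part of the sums, overlapped, at 702 and 549 against 619 and 362. The part of these markers in the laminin values was not tested.

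The serum/-LIF replicates lay further apart over the tested laminins than over all tested genes. Serum/-LIF replicate 1 was above replicate 2 in 18 of the 26 tested members and in 6 of the 8 tested laminins. The median log2 difference between the replicates (1 minus 2) was 1.02 over the laminins, 0.62 over the alpha chains and 0.43 over the beta chains, against 0.03 over all tested genes. Laminin transcripts are long, and over the 3896 tested genes at least as long as the shortest tested laminin the median was 0.22. Replicate 1 also had the larger Rn45s share, and the part of that in the difference was not tested.

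Leaving out 1 of these replicates changed the laminin picture. Without serum/-LIF replicate 1 the log2 fold changes were 1.89 for Lama1, 1.496 for Lamc1, 1.39 for Lamb2 and 0.58 for Lama5. Without serum/-LIF replicate 2 they were 0.01, 0.15, -0.88 and -0.82. The number of members selected by an unadjusted p under 0.05 and 2-fold was 9 without serum/-LIF replicate 1 and 2 without Royalactin replicate 2. Over all tested genes, the number with an unadjusted p under 0.05 moved the same way, from 1214 to 2518 and to 547 in these fits. For Itga3, whose replicates differed less than the conditions, the same omissions of the serum/-LIF libraries gave -1.26 and -1.90.

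**Figure D4:**
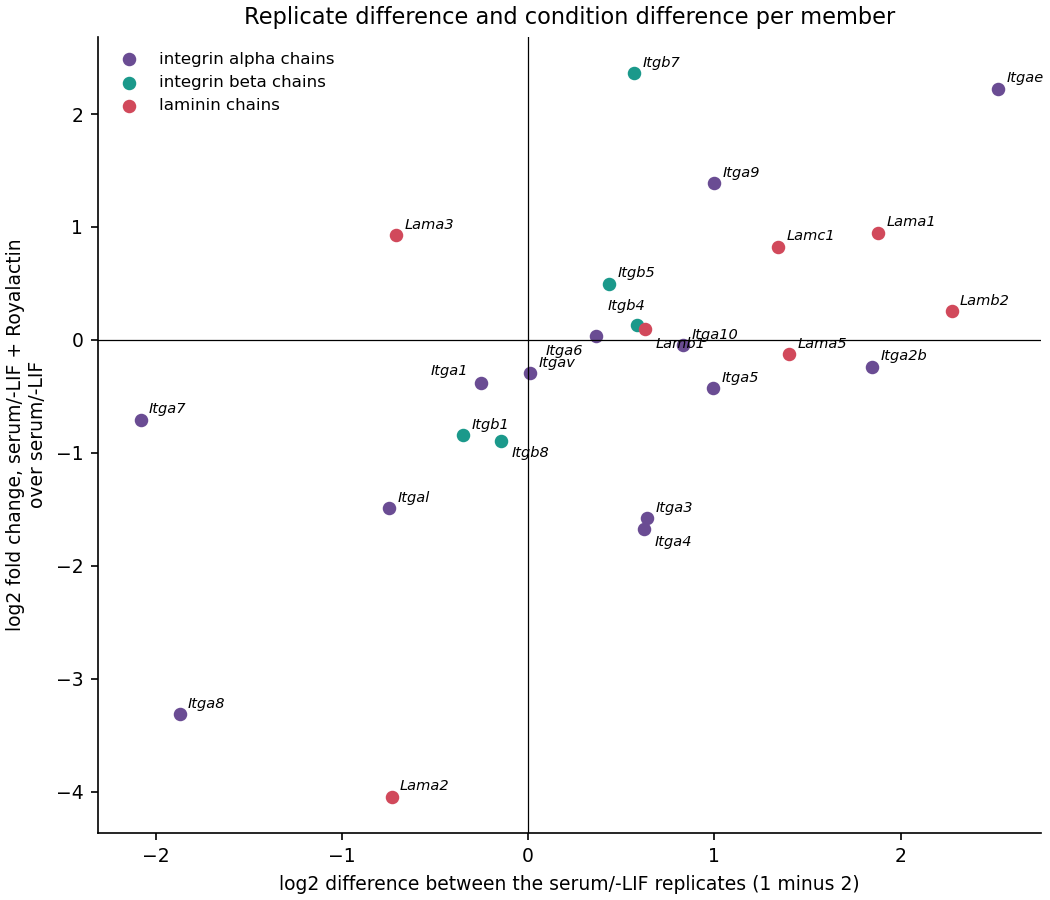
Log2 difference between the serum/-LIF replicates (x axis, 1 minus 2) and log2 fold change between the conditions (y axis) for 25 of the 26 tested members, coloured by kind of chain. Lama1, Lama5, Lamb2 and Lamc1 lie to the right, where the replicates differ by more than the conditions, while Itgb1, Itgb7, Itga3 and Itga4 lie further from 0 on the y axis than on the x axis.

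The genes around the chains were taken from 4 lists. Over all tested genes, 0.493% were called, with an adjusted p under 0.05 in limma. A further measure is the selected genes, 3.52% of all tested genes on the higher side and 3.61% on the lower side. Of 13 tested integrin ligands out of 20 listed, 1 rose and 2 fell at an adjusted p under 0.05 in limma. Spp1 (osteopontin, a ligand of the alpha 9 and alpha v chains) rose from 844 and 1095 normalized counts to 3438 and 3391 (log2 fold change 1.83, adjusted p = 0.0132 in limma). Cyr61 fell from 1789 and 1356 to 143 and 234, and Thbs1 (thrombospondin 1) fell from 1487 and 706 to 129 and 70.9 (adjusted p = 0.00273 and 0.00371 in limma). The selected but not called ligands were Fn1 (fibronectin) at 2007 and 954 against 6072 and 3227, Mfge8 with a log2 fold change of 1.66, and Npnt (nephronectin) with -3.86 (adjusted p = 0.105, 0.295 and 0.282 in limma). The median log2 fold change of the tested ligands was -0.34.

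Of 26 tested activators and cytoplasmic adaptors out of 28 listed, 1 was called and 7 were selected, against 0.493% and 7.13% of all tested genes. Tns3 (tensin 3), which binds the tails of integrin beta chains, rose from 670.0 and 476 normalized counts to 2493 and 1924 (log2 fold change 1.95, adjusted p = 0.0141 in limma). The other 6 were lower and not called: Fermt1, Ilk, Parva, Bcar1, Zyx and Rap1a. Fermt1 (kindlin 1, which activates integrins) had 226 and 300.2 against 41.2 and 47.5 (log2 fold change -2.53, adjusted p = 0.0596 in limma). Ilk, the linker between beta tails and parvins, had 527 and 704 against 246 and 277 (log2 fold change -1.22, adjusted p = 0.219 in limma). Of the 26, 10 were without overlap, 9 lower and 1 higher. Over all 12993 tested genes, 38.6% were without overlap, 2452 lower and 2559 higher. The list was chosen with earlier results of these data known, so its split between the sides is description only. Its median log2 fold change was -0.09.

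Of 14 tested basement membrane partners out of 19 listed, 0 were called and 2 were selected in limma. Nid1 (nidogen 1, which joins laminin to collagen IV) was higher, at 194 and 216 normalized counts in serum/-LIF and 714 and 472 with Royalactin (log2 fold change 1.498, adjusted p = 0.141 in limma). Col4a5, a collagen IV chain, was lower, at 62.9 and 70.4 against 1.01 and 18.6 (log2 fold change -3.43, adjusted p = 0.378 in limma). The list's median was -0.31. Of 11 tested genes out of 12 for other laminin receptors and laminin assembly, 0 were called, and Sdc1 (syndecan 1) and Sgce were selected on the lower side (log2 fold changes -1.09 and -2.45, adjusted p = 0.280 and 0.534 in limma), with a median of -0.26.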

How the data were processed

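RNA-seq of J1 mESCs was used in 4 libraries, 2 per condition, grouped by the sample labels. The other 30 samples of the series (ATAC-seq) were not analysed here. Reads of 75 cycles were mapped to mm9 with TopHat (Bowtie) and counted with HTSeq-count, and the authors deposited the counts after DESeq size-factor normalization, so each value is a signal in units of scaled reads. How strand was treated, and which gene models were used, is not given in the sources used here. In each library 100% of values were whole multiples of 1 step to within 0.01 of a read (1.34, 1.04, 1.01 and 0.688 normalized counts per read), from which the reads quoted were taken. Because the step of serum/-LIF + Royalactin replicate 1 is close to 1, no test on counts was made. Intervals and floors cover counting error only.

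The conditions were compared with limma (version 3.58.1, under R 4.3.3) on the log2 of normalized counts after adding 1, two-sided and with a variance trend, and p-values were adjusted by Benjamini-Hochberg over all 12993 genes that averaged at least 10. Called genes have an adjusted p under 0.05, and selected genes an unadjusted p under 0.05 and a 2-fold change, the study's limits. A member was given in full if it was called, selected, the most abundant of its class, or without overlap and past a log2 fold change of 0.58, and the others by ranges. Listed genes were named if called or selected. The values of 1 member are not reported here, although it is part of the counts and medians. The members and lists were chosen with earlier results of these data known. Alternatives were other pseudocounts (0.1, 5), filters (all genes above 0, a mean of at least 50) and scalings, the replicate number as a block, no trend, each library left out, and, added after seeing the data, a correction for GC content and exon length. Positions and exon lengths came from GENCODE vM1 on mm9, tiles (75 bases, every 25) were mapped with minimap2 2.31-r1302, and promoters came from RefSeq on GRCm38.p6. The steps were tested on simulated data.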

Additional observations from a re-analysis of the deposited data

How the results depend on the processing

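Of 325 log2 fold changes of the 26 tested members under 13 alternatives, 303 kept their direction and side of the threshold, 16 changed sign, and 16 members had no change of sign. With limma, the number of called members went from 0 to 1 (Itga3) with a pseudocount of 5, a mean of at least 50 or the replicate block, to 2 (Itga3 and Itgb1) with the correction for GC content and exon length, which was chosen after seeing the data, and to 0 to 1 with 1 library left out (1 without serum/-LIF replicate 2), where the lone library is assumed to vary like the other condition. The number of selected members went from 5 to 3 with a mean of at least 50 and to 2 to 9 with 1 library left out. Over all genes, limma called 64 genes (1214 at an unadjusted p under 0.05), 32 with a pseudocount of 0.1, 34 over all genes above 0, 99 with a mean of at least 50, 391 with the replicate block, 226 with the GC and length correction, 0 without the trend (1135 at an unadjusted p under 0.05), and 0 to 60 with 1 library left out (0 without serum/-LIF replicate 1 or Royalactin replicate 2, with 2518 and 547 at an unadjusted p under 0.05). The labels tie same-numbered libraries only by their number, and the correlation of their deviations over all tested genes was 0.0851, over 2 pairs. Replicate 1 nevertheless had the larger Rn45s share in both conditions, at 46.6% against 21.6% and at 38.4% against 9.08%. It was above replicate 2 in both conditions for Lama1, Lama5 and Lamc1, but not for Lamb1 or Lamb2. The replicate block made Itga3 a call (adjusted p = 0.000394 in limma) and no other member. The next smallest adjusted p-values of members with the block were 0.0565 for Itgb1 and 0.0768 for Lamc1 in limma.

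With 1 library left out, the median log2 fold change lay between -0.69 and -0.29 for the alpha chains, between -0.54 and 0.59 for the beta chains and between -0.52 and 0.57 for the laminins. Changes of sign were seen only in overlapping members. Where the conditions do not overlap, leaving out 1 library cannot change the sign, so this says nothing of how stable those members are. Itga10 was at 0.0051 with equal totals without Rn45s. With 1 library left out, Itga10 ranged from -0.46 to 0.37, Itga2b from -1.16 to 0.69, Itga5 from -0.92 to 0.070, Itga6 from -0.15 to 0.21, Itgal from -1.86 to 0.95, Itgav from -0.67 to 0.080, Itgb4 from -0.78 to 1.05, Lama5 from -0.82 to 0.58, Lamb1 from -0.22 to 0.41 and Lamb2 from -0.88 to 1.39. The cause was not tested. At this depth 11 of the 37 members were under a mean of 10 and were not tested.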
